A study of Mus musculus with 10 samples.

Results

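Integrins are cell-surface receptors made of 1 alpha and 1 beta chain, and laminins are trimers of 1 alpha, 1 beta and 1 gamma chain that build the basement membrane around smooth muscle and endothelial cells. Members were taken by gene name from the mouse array: 28 integrin names (Itga, Itgb and the beta-like Itgbl1) and 9 laminin names (Lama, Lamb, Lamc), 37 of the 35527 names on the array. Of the integrin names, 9 encode chains found mainly on leukocytes, 17 encode chains of muscle and other adherent cells that bind matrix, and Itga2b (the platelet alpha IIb chain) and Itgbl1 stand in neither group. The laminin beta 1 chain is printed on this array as Lamb1-1, a name outside the gene-name pattern, and is given below as a neighbour and not as a member.

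Beta 2 integrins (an Itgal, Itgam, Itgax or Itgad chain with Itgb2) let neutrophils, monocytes and T cells hold on to ICAM-bearing endothelium, and alpha 4 chains bind VCAM-1, or MAdCAM-1 when paired with Itgb7. In the healthy media, alpha 7 and alpha 3 with the shared Itgb1 chain bind laminin, alpha 1 and alpha 11 bind collagen, alpha 5 binds fibronectin, and alpha 8 binds nephronectin and other RGD-bearing ligands. These receptors reach the actin cytoskeleton through talin, kindlin, integrin-linked kinase, vinculin and tensin.

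The samples were infrarenal aortas of male C57BL/6J mice aged 10 weeks, harvested on day 7 after infusion. For PPE, the segment was infused for 5 min at 100 mmHg with porcine pancreatic elastase at 1.5 U/mL, a standard way to start an abdominal aortic aneurysm, and for sham with saline. Each group held 5 arrays with 1 aorta each. Aortic RNA was labelled with Cy5 (red) and hybridised against Cy3-labelled universal mouse reference RNA (green), so each value below is a log2 ratio of aorta over reference, and levels of different genes are not compared. The model injures the wall with an enzyme, and the whole segment was homogenised with whatever adventitia and infiltrate it held. In such bulk tissue, fewer cells of a type and less RNA per cell cannot be told apart.

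Spots well above background in the aortic channel made up 37.6% to 65.8% of the array, lowest in sham 5 and, within the PPE group, in PPE 5, and no spot was saturated. The smooth muscle markers Acta2, Tagln, Cnn1, Smtn and Myh11 were well above background on all 10 arrays. Of these, 4 were called lower after PPE (Acta2 by 2.48 on the log2 scale, from 4.29 ± 0.34 to 1.80 ± 0.58, SD, n = 5), while the leukocyte marker Ptprc rose 8.36-fold and the macrophage marker Adgre1, listed as Emr1, rose by 3.42 on the log2 scale. All 3 pan-leukocyte, 4 of 5 macrophage, 3 of 4 measured neutrophil and 2 of 3 T cell markers were called higher, as were 2 of 4 fibroblast markers and 1 of 4 Schwann cell markers. Per array, the median log2 ratio of the pan-leukocyte markers ran from -1.25 to -0.66 in sham and from 1.34 to 2.12 in PPE, and that of the smooth muscle markers from 3.90 to 5.32 and from 1.96 to 3.02. None of the 3 B cell, 5 platelet, 4 endothelial, 3 measured skeletal muscle, 3 adipocyte or 2 mesothelial markers passed the test. The part these cell-type shifts play in the values below was not tested.

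Only probes with an aortic signal well above background on 5 or more of the 10 arrays were tested, and a name was called at a limma adjusted p under 0.01 across 22520 names. Among all names, 13.9% were called higher and 9.96% lower, and 25.5% had sham and PPE values that did not overlap. Of the 37 members, 31 were tested, 8 were called higher and 8 lower, and 13 had values that did not overlap between groups. The 8 called higher and the 13 include Lama1, which met the filter through PPE, the group in which it was high, so its call is a description only. The 6 untested members were Itgad, Itgae, Itgb2l, Itga2, Itgb6 and Itgb8. All 16 called members moved the same way within each of the 2 slides that carried both groups. The calls came from these same arrays, so this is a description and no independent support. All uncalled members except Itgav and Itga2b also kept their direction on both slides, and slide 1 held only 1 sham array. With each array only centred on its median, in place of the intensity-dependent (loess) correction, the log2 fold change of the middle name shifted to 0.41 and the calls among all names split 98.1% higher, against 58.2% in the fit reported here. Directions below are therefore relative to the bulk of the array. Against that shift all 16 called members kept their sign, although only Itgax still passed the test.

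**Figure D1:**
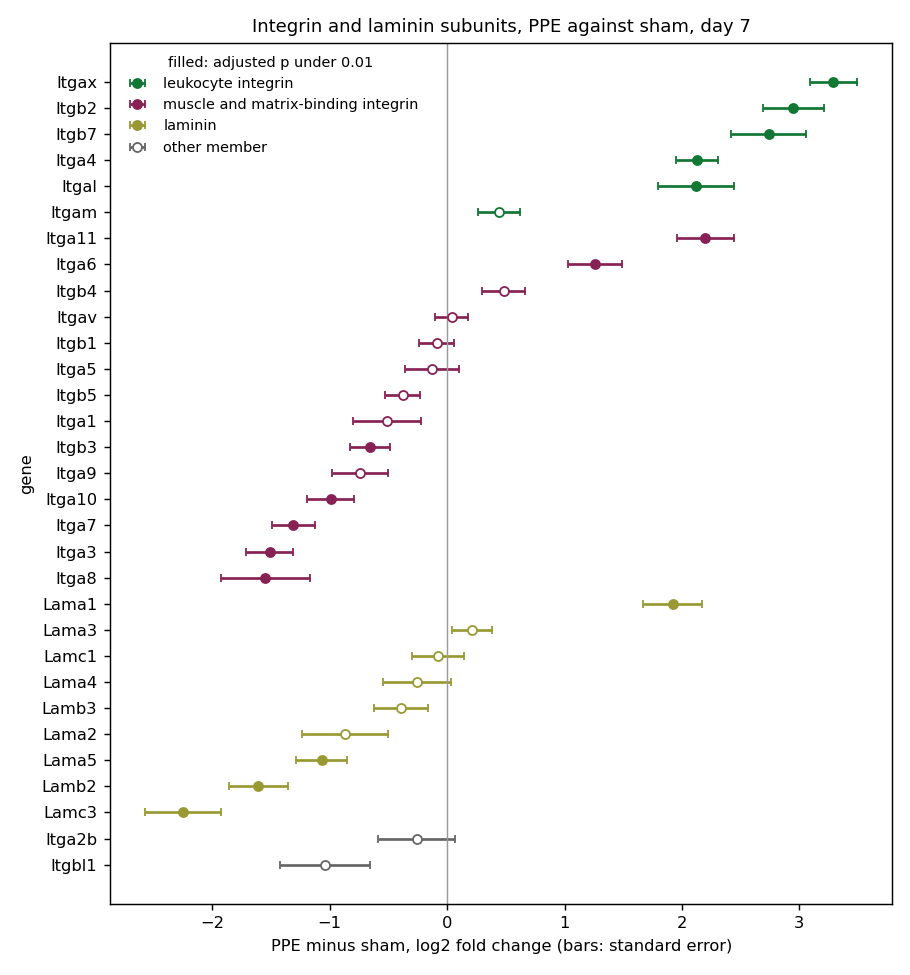
Difference between the group means (PPE minus sham, log2) with its standard error for the 31 tested members, ordered within 4 groups, with 5 arrays per group. Filled points passed an adjusted p under 0.01. The 5 called leukocyte integrin chains lie between 2.12 and 3.29, whereas the matrix-binding integrins and the laminins lie on both sides of 0.

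Most leukocyte chains rose. Of 9 members, 6 were tested and 5 were called higher (Itgax, Itgb2, Itgb7, Itga4 and Itgal), where 13.9% of all names were. None was called lower, where 9.96% of all names were. The median log2 fold change of the 6 was 2.43, against 0.02 over all names tested. Under median centring all 5 were still higher, and 1 of them, Itgax, passed. Of the 6 tested, the 5 called chains had groups that did not overlap, where 25.5% of all names tested had.

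Itgax, the alpha X chain of CD11c on macrophages and dendritic cells, changed most. Its log2 ratios were -0.55, 0.01, 0.06, -0.30 and -0.22 in sham 1 to 5 and 3.31, 3.56, 2.57, 2.70 and 3.33 in PPE 1 to 5. Every PPE aorta stood more than 2 log2 units above every sham aorta, and the mean rose 9.81-fold (log2 fold change 3.29, SE 0.20, limma adjusted p = 8.11e-07).

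Itgb2, the beta chain that all of the CD11 receptors share, read -1.14, -1.24, -0.56, -0.57 and -0.70 in sham and 2.79, 2.42, 1.72, 2.28 and 1.30 in PPE. It was low in every sham aorta, and the mean rose 7.70-fold (log2 fold change 2.95, SE 0.26, limma adjusted p = 8.45e-06). Itgal, the alpha L chain of LFA-1 on lymphocytes and other leukocytes, read -2.44, -1.76, -1.26, -1.78 and -1.37 in sham and 1.22, 0.56, 0.19, 0.67 and -0.64 in PPE. The PPE aortas again lay above all sham aortas, with PPE 5 the nearest to them, and the rise was 4.36-fold (log2 fold change 2.12, SE 0.32, limma adjusted p = 0.000347). Its aortic signal was well above background on only 3 of the 5 sham arrays. The size depended on the reading, with a log2 fold change of 3.61 by the scanner's own ratio and of 1.36 with the mean of its probes.

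The alpha 4 and beta 7 chains, which guide lymphocytes and monocytes through VCAM-1 and MAdCAM-1, behaved alike in direction. Itga4 read 0.10, 0.29, 0.33, -0.02 and 0.38 in sham and 2.88, 2.54, 2.05, 2.40 and 1.89 in PPE. The sham values were tightly grouped (SD 0.17) and the mean rose 4.39-fold (log2 fold change 2.13, SE 0.18, limma adjusted p = 5.50e-06). Itgb7, the beta chain, read -2.79, -2.57, -1.34, -2.54 and -2.01 in sham and 1.30, 0.79, 0.22, 0.37 and -0.25 in PPE. The gap between the highest sham and the lowest PPE aorta was over 1 log2 unit, and the mean rose 6.66-fold (log2 fold change 2.74, SE 0.32, limma adjusted p = 5.83e-05).

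The same aortas were at the extremes for most of these chains. PPE 1 was the highest and PPE 5 the lowest of the PPE group for 4 of the 5 called chains, the exception being Itgax, which was highest in PPE 2 and lowest in PPE 3. Ptprc, the common leukocyte antigen, was likewise highest in PPE 1 (2.12) and lowest in PPE 5 (0.75), and Emr1 ran from 3.53 in PPE 5 to 4.82 in PPE 1. Among the sham aortas, sham 3 was the highest for 4 of the 5 chains, as it was for Ptprc (-0.72, against -2.11 to -1.59 in the other 4).

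**Figure D2:**
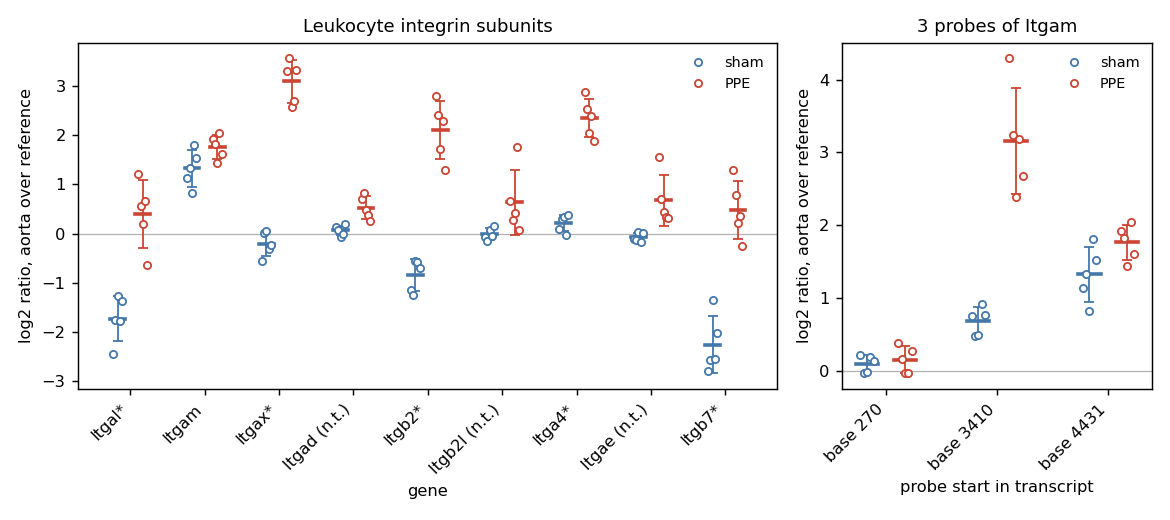
Log2 ratio of aorta over reference in each of the 5 sham (blue) and 5 PPE (red) arrays for the 9 leukocyte integrin names and for the 3 Itgam probes; thick lines are means and bars are SD, an asterisk marks an adjusted p under 0.01 and n.t. a name not tested. The 5 starred names do not overlap between groups, and of the 3 Itgam probes only the one at base 3410 separates the groups.

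Itgam, the alpha M chain of Mac-1 (CD11b) on neutrophils, monocytes and macrophages, is the leukocyte chain that was not called, and its 3 probes differed. The array's own annotation (build mm9) places them at chr7:135212140-135212199, chr7:135260275-135260334 and chr7:135261755-135261814 on the plus strand, starting at bases 270, 3410 and 4431 of the transcript. Their sequences are shown because the reading depends on which is used. The first 2 are whole, and the last is given by its first 30 bases, with an unbroken run of CA repeats in capitals.
Itgam probe at base 270: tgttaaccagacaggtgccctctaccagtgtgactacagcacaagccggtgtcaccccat
Itgam probe at base 3410: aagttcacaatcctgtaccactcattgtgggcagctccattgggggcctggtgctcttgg
Itgam probe at base 4431: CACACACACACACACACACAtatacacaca

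The probe at base 3410 read 0.76, 0.48, 0.49, 0.92 and 0.77 in sham and 4.29, 3.24, 2.39, 3.19 and 2.68 in PPE. Every PPE aorta was above every sham aorta, and the ratio rose 5.56-fold (log2 fold change 2.48, SE 0.29, limma adjusted p = 6.40e-05 over 30836 probes, of which 12.8% were called higher and 9.15% lower). PPE 1 was again the highest of its group. The probe at base 270 read 0.22, -0.03, -0.01, 0.20 and 0.14 in sham and 0.39, 0.16, -0.03, -0.02 and 0.28 in PPE, a log2 difference of 0.05 (SE 0.11; limma adjusted p = 0.761). Its aortic signal was near the floor, 7.04 in sham and 7.08 in PPE on the log2 intensity scale, where the dimmest probes well above background lay between 4.20 and 6.66 from array to array.

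The probe at base 4431 was by far the brightest of the 3 and so stands for Itgam in the gene-level fit. It read 1.14, 1.33, 0.83, 1.81 and 1.53 in sham and 1.92, 1.82, 1.44, 2.04 and 1.61 in PPE. The groups overlapped, and the difference of 0.44 (log2, SE 0.18) did not pass among names (limma adjusted p = 0.0869). The CA run in this probe is 20 bases long. Runs of at least that length occur in 22 probes of the array (0.0395%), and none of the other 21 was called, with log2 fold changes between -0.56 and 0.05 and a median brightness of 10.88 against 8.67 over all probes tested. Whether the repeat bears on the reading of this probe was not tested. With the mean of its probes, Itgam was called higher.

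Unlike Itgam, the 3 probes of Itgal gave 2 calls in the same direction (log2 fold changes 2.12 and 1.97), and the last, at base 4428 of its annotated transcript and dim in both groups, gave -0.02 (limma adjusted p = 0.928). Itgal, Itgam, Itgax and Itgad lie on the same chromosome, the last 3 close together: the Itgax probe is at chr7:135294052-135294111 and the Itgad probe at chr7:135348901-135348960.

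Itgad, Itgae and Itgb2l were dim. None was well above background on any sham array, and each was so on only 2 (Itgad, Itgae) or 3 (Itgb2l) of the 5 PPE arrays. Each sham signal below the dimmest well-above-background signal of its array was raised to that signal. Against these, the mean aortic signal after PPE was 1.16-fold higher for Itgad, 1.30-fold higher for Itgb2l and 1.31-fold higher for Itgae, the chain that holds T cells to E-cadherin. The PPE means include arrays not well above background, so these values are not lower limits. The 5 PPE values lay above the 5 sham values for Itgad (0.25 to 0.82 against -0.06 to 0.19) and Itgae (0.32 to 1.56 against -0.16 to 0.03), and overlapped for Itgb2l. These 3 names have no test.

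The proximal promoters of 2 neighbouring chains are shown because PU.1, a transcription factor of myeloid cells, is known to bind a purine-rich core, here searched as GAGGAA on either strand. RefSeq promoters (build GRCm38.p6, 250 bases before to 50 bases after the most upstream start) were listed for 24 of the 37 members and for 5 of the 9 leukocyte chains. The letters occurred in 3 of those 5 (Itgam, Itgb2l and Itgb7) and in 28.3% of the promoters of all genes. They also occurred in 2 of the 5 promoters listed for members called lower (Lama5 and Lamb2). Of the 3 leukocyte chains with the letters, Itgb7 was called higher, Itgam was not called and Itgb2l was not tested. The 100 bases before the start are given 5′ to 3′ on the plus strand, with each match in capitals.
Itgam, chr7:128062540-128062639: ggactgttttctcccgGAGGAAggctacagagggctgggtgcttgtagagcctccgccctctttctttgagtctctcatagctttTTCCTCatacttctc
Itgax, chr7:128129450-128129549: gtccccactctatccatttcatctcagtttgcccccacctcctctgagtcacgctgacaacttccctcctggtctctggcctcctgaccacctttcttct

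Itgam held matches at -84 to -79 and at -15 to -10 from the start, and at 33 to 38 past it, beyond the printed stretch. The Itgax window held none, although Itgax rose. A match is a run of letters and no evidence of binding. The CArG box of serum response factor, searched by its usual consensus on both strands, was in none of the 5 promoters listed for members called lower and in 1.59% of all promoters. At so low a share, 5 promoters are too few for its absence to tell anything. Lama2, which was not called, held a CArG box at -39 to -30.

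The matrix-binding chains went both ways. Of 17 members, 14 were tested and 5 were called lower (Itga8, Itga3, Itga7, Itga10 and Itgb3), where 9.96% of all names were. Another 2 were called higher (Itga11 and Itga6), a share close to the 13.9% of all names. The other 7 were not called, and the median log2 fold change of the 14 was -0.45. Under median centring none of the 14 passed and Itgb3 read 0.00. Of the 14 tested, 5 had groups that did not overlap, all of them called, where 25.5% of all names tested had.

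Among collagen receptors, Itga11 and Itga10 moved in opposite directions. Itga11, a fibroblast and mesenchymal chain for fibrillar collagen, read 2.06, 1.56, 1.16, 2.10 and 1.63 in sham and 3.61, 4.05, 4.43, 3.27 and 4.12 in PPE. It was the only collagen-binding chain called higher, by 4.59-fold (log2 fold change 2.20, SE 0.24, limma adjusted p = 3.36e-05). Its order among the PPE aortas was not that of the leukocyte chains, with PPE 3 the highest and PPE 4 the lowest. Itga10 read 2.67, 2.66, 1.86, 2.61 and 2.08 in sham and 1.11, 1.78, 1.49, 1.05 and 1.51 in PPE, and fell 1.98-fold (log2 fold change -0.99, SE 0.20, limma adjusted p = 0.00245), its 2 probes giving -0.99 and -1.02. With slide as a fixed block its log2 fold change was -1.08 and the call was lost (limma adjusted p = 0.0124). Itga1, the smooth muscle collagen receptor, read 3.40, 3.39, 2.23, 3.57 and 2.26 in sham and 2.82, 2.77, 2.26, 2.34 and 2.10 in PPE. Its groups overlapped, and the log2 fold change of -0.51 (SE 0.29) did not pass (limma adjusted p = 0.199), although it was called with the scanner's own ratio (-0.80). Itga2, the platelet and epithelial collagen chain, was well above background on too few arrays to be tested.

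Laminin receptors also split. Itga3 read 0.53, 0.68, 0.17, 0.57 and -0.23 in sham and -1.65, -0.97, -1.23, -1.12 and -0.86 in PPE. All 5 PPE aortas were below all sham aortas, and the mean fell 2.84-fold (log2 fold change -1.51, SE 0.20, limma adjusted p = 0.000126). Itga7, the principal laminin receptor chain of differentiated muscle, read 2.94, 2.85, 2.40, 2.83 and 2.46 in sham and 1.09, 1.97, 1.15, 1.31 and 1.43 in PPE. It fell 2.47-fold without overlap (log2 fold change -1.31, SE 0.18, limma adjusted p = 0.000182), and PPE 2 kept the highest value of its group.

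Itga6, the laminin receptor chain of endothelium, epithelium and several leukocytes, was read by 2 probes that disagreed. The brighter probe, at chr2:71694756-71694815 (base 4145), read -0.99, -1.37, -1.13, -1.35 and -1.50 in sham and -0.68, -0.14, 0.32, -0.24 and 0.67 in PPE. On this probe the ratio rose 2.39-fold without overlap (log2 fold change 1.26, SE 0.23, limma adjusted p = 0.00113). The other, at chr2:71690633-71690692 (base 2562), gave a log2 difference of -0.50 (SE 0.20; limma adjusted p = 0.0822 among probes) and ran from 0.28 to 0.80 in sham and from -0.25 to 0.89 in PPE. The call of Itga6 ended with the mean of the probes (log2 fold change 0.38) and with slide as a fixed block. Itgb4, the hemidesmosome partner of alpha 6, gave 0.48 (SE 0.18, limma adjusted p = 0.0649).

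Of the chains for RGD and tenascin ligands, Itga8 had the largest difference and the widest spread. This alpha 8 chain, abundant in contractile vascular smooth muscle, read 7.74, 6.81, 6.63, 7.44 and 6.93 in sham and 5.96, 6.85, 5.29, 5.20 and 4.52 in PPE. PPE 2 lay among the sham values while the other 4 lay below them, and the mean fell 2.92-fold (log2 fold change -1.55, SE 0.38, limma adjusted p = 0.00818). The call was lost when any of sham 1, sham 2, sham 4, sham 5, PPE 1, PPE 3, PPE 4 or PPE 5 was left out, and with the scanner's own ratio (log2 fold change -0.61, limma adjusted p = 0.244) and with no filter on dim probes (limma adjusted p = 0.0156).

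The reference channel moved with Itga8. The reference RNA was the same on all arrays, yet on this spot its raw signal was 576 to 1400 in sham and 91.4 to 216 in PPE, while the aortic signal was 8490 to 89400 in sham and 514 to 19700 in PPE. Both channels were thus lower after PPE, and a ratio counts only the difference between them. Reference signals, each array centred on its median, did not overlap between the groups for 4 of the 31 tested members (Itga8, Itga9, Lamc3 and Itgax) and for 2.12% of all names. In each of the 4 the reference moved in the direction of the aortic signal. The cause was not tested. In the aortic channel alone, likewise centred, the log2 difference was -3.23 for Itga8, -1.80 for Itga9, -2.14 for Lamc3 and 4.32 for Itgax, with limma adjusted p = 0.0353, 0.15, 0.0694 and 0.0012.

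**Figure D3:**
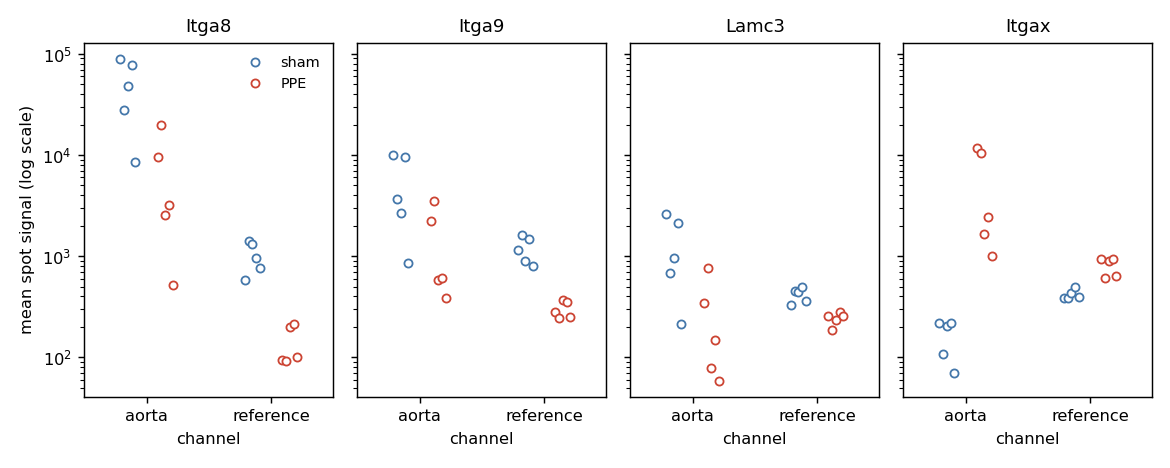
Mean spot signal, on a log axis and not normalised, in the aortic and the reference channel of each array for the 4 members whose reference signal did not overlap between groups, with 5 sham arrays in blue and 5 PPE arrays in red. For Itga8 the reference ran from 576 to 1400 in sham and from 91.4 to 216 in PPE; it was also lower after PPE for Itga9 and Lamc3 and higher for Itgax.

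Itga9, which binds tenascin and osteopontin, read 3.51, 3.51, 2.72, 3.65 and 3.24 in sham and 2.57, 3.16, 2.24, 2.02 and 2.93 in PPE. Its groups overlapped, and the log2 difference of -0.74 (SE 0.24; limma adjusted p = 0.0303) was short of the threshold, which it passed with slide as a random block (-0.79; limma adjusted p = 0.007). Itgb3, the beta chain of the vitronectin receptor and of the platelet fibrinogen receptor, was called lower by a narrow margin (log2 fold change -0.66, SE 0.17, limma adjusted p = 0.00943), with sham values of 2.70, 2.55, 1.92, 2.56 and 2.02 and PPE values of 1.68, 1.98, 1.57, 1.62 and 1.57. The call was lost without any of sham 1, sham 2, sham 4, PPE 1, PPE 3, PPE 4 or PPE 5 and under median centring (0.00). It was also lost with no filter, with the mean of the probes (-0.46) and with slide as a fixed block (-0.73), and its dimmer probe gave -0.25.

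The more widely used chains showed small differences. Itgb1, the beta partner of most matrix receptors, read 0.66, 1.12, 0.77, 0.60 and 0.62 in sham and 0.75, 0.27, 0.66, 0.69 and 0.93 in PPE, a log2 difference of -0.09 (SE 0.15; limma adjusted p = 0.666). Its other probe gave -0.56 (SE 0.24, limma adjusted p = 0.101). Itgav, Itga5 and Itgb5, which bind vitronectin or fibronectin, gave 0.04, -0.13 and -0.38, none past the test and all with overlapping groups. Itgb6 and Itgb8, the chains that activate latent TGF-beta with alpha v, were too dim to test, Itgb6 being well above background on 1 sham array and no PPE array. By the comparison used for Itgad, with PPE as the dim group, Itgb6 was 1.41-fold lower after PPE. Its sham mean includes arrays not well above background, so this value is no lower limit.

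**Figure D4:**
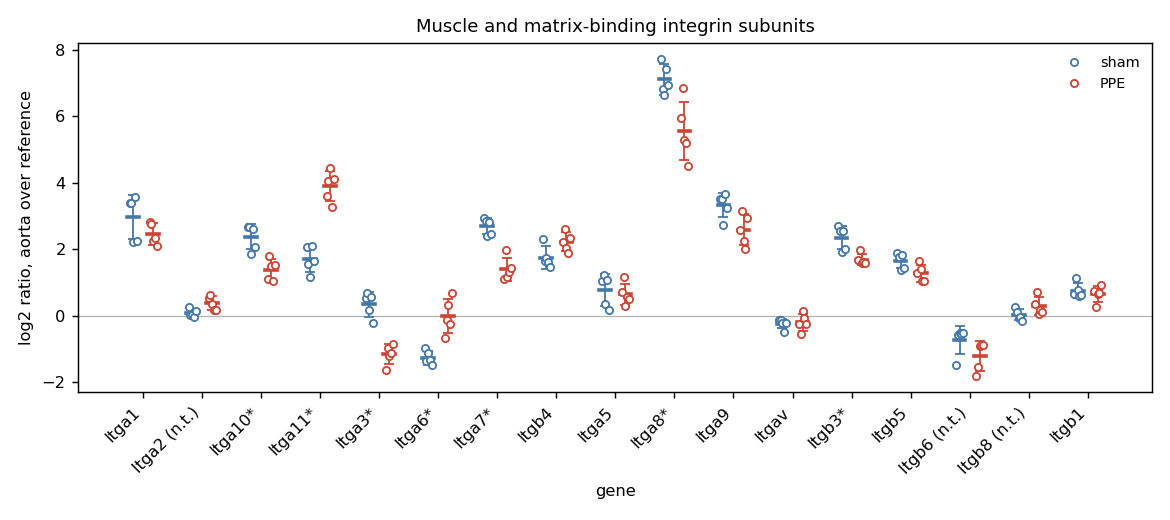
Log2 ratio of aorta over reference per array for the 17 muscle and matrix-binding integrin names, 5 sham (blue) and 5 PPE (red) arrays; thick lines are means, bars are SD, an asterisk marks an adjusted p under 0.01 and n.t. a name not tested. Itga11 lies apart upwards, Itga3, Itga7 and Itga10 lie apart downwards, and for Itga8 the PPE 2 array (6.85) lies within the sham range.

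Neither remaining integrin name passed the test. Itga2b ran from -1.40 to 0.48 in sham and from -1.08 to -0.02 in PPE (log2 fold change -0.26, SE 0.33, limma adjusted p = 0.592), while the 5 platelet markers were also not called. Itgbl1 ran from 5.52 to 6.65 in sham and from 3.93 to 6.24 in PPE (log2 fold change -1.04, SE 0.38, limma adjusted p = 0.0518).

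Of the 9 laminin chains, all were tested and 3 were called lower (Lamc3, Lamb2 and Lama5), where 9.96% of all names were. Only Lama1 was called higher, where 13.9% of all names were, and it was well above background on 1 sham array. The other 5 were not called, and the median log2 fold change over all 9 was -0.39. Under median centring none passed, and Lama4, Lamb3 and Lamc1, not called in either, read above 0. Of the 9 tested, 3 had groups that did not overlap, all of them called, where 25.5% of all names tested had.

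Lamc3, the gamma 3 chain, read 3.23, 2.68, 2.06, 3.0 and 1.90 in sham and 0.12, 1.33, -0.04, 0.34 and -0.13 in PPE. The ratio dropped furthest of the 31 tested members in this fit, 4.76-fold (log2 fold change -2.25, SE 0.32, limma adjusted p = 0.000225), with PPE 2 nearest the sham aortas. In the aortic channel alone Itga8 dropped further (-3.23 against -2.14), and over the other settings the log2 fold change of Lamc3 ran from -1.47 under median centring to -2.94 with the scanner's own ratio. Its aortic channel was well above background on all sham arrays. Lamb2, the beta 2 chain of mature vascular and neuromuscular basement membranes, read 2.47, 2.29, 1.58, 2.49 and 1.83 in sham and 0.45, 1.33, 0.38, 0.14 and 0.27 in PPE. It fell 3.06-fold (log2 fold change -1.61, SE 0.25, limma adjusted p = 0.000364), again with PPE 2 the highest of its group. Lama5, the alpha 5 chain of mature endothelial and smooth muscle basement membrane, read 1.31, 1.03, 0.61, 0.90 and 0.27 in sham and -0.40, 0.41, -0.33, -0.31 and -0.62 in PPE. Only PPE 2 and sham 5 overlapped, and the mean fell 2.11-fold (log2 fold change -1.07, SE 0.22, limma adjusted p = 0.0029). In the aortic channel alone Lamb2 gave -0.82 and Lama5 -0.24, neither past the test.

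Lama1, the alpha 1 chain best known from embryonic basement membranes, went the other way. It read 0.03, 0.05, 0.49, -0.03 and 0.28 in sham and 2.86, 1.61, 1.73, 2.55 and 1.65 in PPE. The aortic signal was well above background on 1 sham array and all 5 PPE arrays, so Lama1 met the filter of 5 arrays through the group in which it was high. The measured ratios differed by 1.92 on the log2 scale, a description rather than a tested fold, since the spot was not well above background on the other 4 sham arrays. Lama1 was left out by the filter of 10 arrays, and the scanner's own ratio gave a log2 fold change of 2.41 but a limma adjusted p of 0.015.

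The remaining chains were not called. Lama4, the alpha 4 chain common to vessel walls, read 6.25, 5.75, 5.22, 5.97 and 4.84 in sham and 6.01, 5.63, 4.99, 5.24 and 4.87 in PPE, a log2 difference of -0.26 (SE 0.29; limma adjusted p = 0.545). Lama2, the muscle alpha 2 chain, gave -0.87 (SE 0.37, limma adjusted p = 0.0911), with PPE values spread from 1.22 to 3.40, but was called lower with scan day as a fixed block (-1.09; limma adjusted p = 0.00371). Lamc1, the gamma chain of most laminins, gave -0.08 (SE 0.22), its PPE values being 1.05, 1.04, 0.95, 0.95 and -0.04. Lama3 and Lamb3, chains of epithelial laminin, gave 0.21 and -0.39, both with overlapping groups. Lamb1-1, the non-member beta 1 chain, read -0.16, -0.59, -0.11, -0.07 and -0.67 in sham and 0.86, 0.83, 0.79, 0.81 and 0.25 in PPE. It rose 2.03-fold without overlap (log2 fold change 1.02, SE 0.16, limma adjusted p = 0.000523), opposite to Lamb2. The call of Lamb1-1 was lost under median centring (1.72, limma adjusted p = 0.164) and in the aortic channel alone (1.69, limma adjusted p = 0.15).

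**Figure D5:**
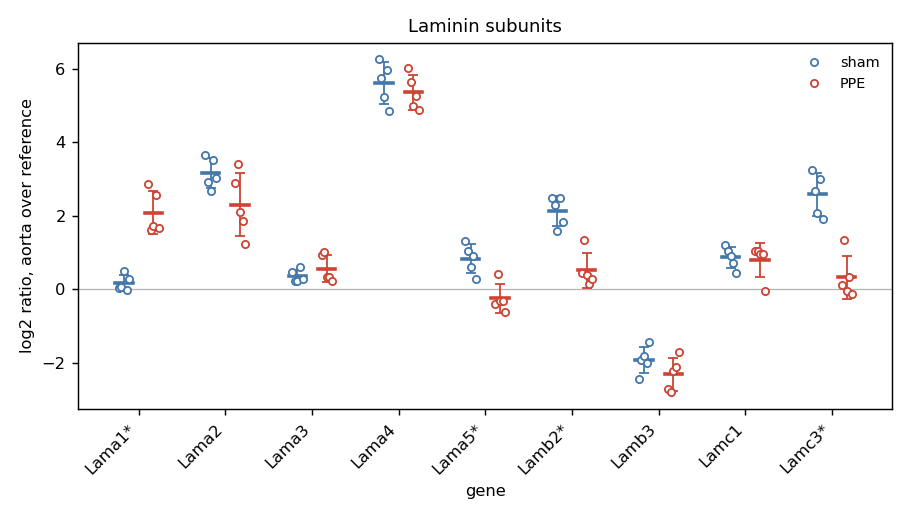
Log2 ratio of aorta over reference per array for the 9 laminin names, 5 sham (blue) and 5 PPE (red) arrays; thick lines are means, bars are SD, and an asterisk marks an adjusted p under 0.01. Lamc3, Lamb2 and Lama5 lie lower after PPE and Lama1 higher, while Lama4 and Lamc1 overlap.

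PPE 2 stood out across the chains that fell: it was the highest of the 5 PPE arrays for 7 of the 8 members called lower, the exception being Itga3, which was highest in PPE 5. It was also the PPE aorta with the highest Acta2 (2.82, against 1.39 to 1.73 in the other 4) and the highest median over the 5 smooth muscle markers (3.02). The smooth muscle list was not alone in this: PPE 2 also had the highest PPE median for the endothelial (3.27), fibroblast (4.88), Schwann cell (2.72), skeletal muscle (4.48), adipocyte (6.13) and B cell (2.05) markers, though not for the leukocyte, macrophage, neutrophil, T cell, platelet or mesothelial markers. Their part in the values of PPE 2 was not tested. Among the sham aortas, sham 3 was the lowest for 5 of the 8 and sham 5 for the other 3, and Acta2 was lowest in the same aortas (3.90 and 3.97).

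Unequal change within 5 pairs of chains was tested as the within-array difference of their log2 ratios, by an exact two-sided permutation over every assignment of 5 of the 10 arrays to PPE, with p-values adjusted over the 5 pairs. The smallest p this design allows is 0.00794. Itga11 gained 2.71 on Itga1 after PPE (the difference went from -1.27 ± 0.45 to 1.44 ± 0.63, SD, n = 5; exact p = 0.00794, adjusted p = 0.00992). Itga6 gained 2.56 on Itga7 (-3.96 ± 0.28 to -1.40 ± 0.59; exact p = 0.00794, adjusted p = 0.00992), which was 1.68 with the mean of the probes. Lamb1-1 gained 2.64 on Lamb2 (-2.45 ± 0.45 to 0.19 ± 0.46; exact p = 0.00794, adjusted p = 0.00992), and Lama4 gained 0.82 on Lama5 (4.78 ± 0.21 to 5.60 ± 0.48; exact p = 0.00794, adjusted p = 0.00992). Itga5 gained 1.42 on Itga8 (-6.34 ± 0.48 to -4.92 ± 0.64; exact p = 0.0159, adjusted p = 0.0159), but only 0.34 with the scanner's own ratio (adjusted p = 0.444). These pairs were picked with the earlier results in view, so their tests describe size and spread and are no independent support.

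Partner genes of the integrins and laminins were read as well. Of 41 listed ligands, basement membrane proteins and cytoplasmic linkers, 40 were tested, 10 were called higher and 11 lower, with a median of -0.09; under median centring none passed. Among all names, 13.9% were called higher and 9.96% lower. Of the 4 endothelial counter-receptors of the leukocyte chains, 3 were called higher and Icam2 was not. Vcam1, a ligand of alpha 4, rose 4.51-fold (from -0.33 ± 0.35 to 1.84 ± 0.25, SD, n = 5; limma adjusted p = 4.94e-06). Madcam1, the gut-homing ligand of alpha 4 beta 7, rose 2.39-fold (limma adjusted p = 3.75e-05) and Icam1, the ligand of the beta 2 chains, rose 2.38-fold (limma adjusted p = 0.00284). These last 2 are named after their values were seen. Spp1, osteopontin, rose 3.24-fold (limma adjusted p = 0.000303). Npnt, nephronectin, the ligand of alpha 8, read 4.29, 3.29, 2.34, 3.22 and 2.27 in sham and 0.43, 1.62, 0.19, 0.40 and -0.01 in PPE. It fell 5.88-fold without overlap (limma adjusted p = 0.000431), and its highest PPE value was in PPE 2, as for Itga8.

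In the basement membrane list of 8, Nid2, a nidogen that links laminin to collagen IV, rose 2.68-fold (limma adjusted p = 3.28e-05) and Nid1 rose 1.52-fold, whereas Bcam, a receptor for the laminin alpha 5 chain, fell 2.53-fold (limma adjusted p = 0.0025) and Dag1, dystroglycan, fell 2.06-fold. Col4a1, Col4a2, Hspg2 and Agrn were not called.

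Of the 24 cytoplasmic linkers, 23 were tested, 4 were called higher and 8 lower. The share called higher was close to the 13.9% of all names, while 9.96% of all names were called lower. Called higher were Fermt3, the hematopoietic kindlin, by 3.63-fold, Ptk2b, the kinase Pyk2, by 3.67-fold and Parvg, the leukocyte parvin, by 2.57-fold (limma adjusted p = 8.30e-05, 5.35e-05 and 0.000564), and Tns3, tensin 3. Of those called lower, Tns1, tensin 1, fell 6.55-fold, Lims2, a PINCH adaptor of integrin-linked kinase, fell 3.54-fold, Fermt2, kindlin 2, fell 2.90-fold and Tenc1, tensin 2, fell 2.85-fold (limma adjusted p = 4.21e-05, 0.000127, 7.02e-06 and 0.000138). Ilk, Vcl, Zyx and Tln1, integrin-linked kinase, vinculin, zyxin and talin 1, were the other 4. Within the kindlins, Fermt3 went from -1.24 ± 0.41 to 0.63 ± 0.40 and Fermt2 from 1.86 ± 0.24 to 0.32 ± 0.16 (SD, n = 5), while Fermt1, the epithelial kindlin, was well above background on no array.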

How the data were processed

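Each array was a SurePrint 8×60K design read with Agilent Feature Extraction 10.7.3.1; the deposited files, per the file headers, hold raw mean and background intensity per spot, well-above-background flags and a log10 ratio of red over green, with probe positions on mm9. The deposited value table holds log2 ratios that equalled the files' processed red over green within 0.0001. With limma 3.58.1 in R 4.3.3, intensities were corrected by normexp (offset 50) and loess, with control spots given no weight. Spots with an outlier flag were left out, and a name was read from its brightest tested probe. Groups were compared with lmFit and eBayes, Benjamini-Hochberg adjusted over all names. The study's methods used SAM, run here as an alternative, and state that arrays were removed for poor hybridisation or as outliers. The fold differences of the dim members used the red channel after Aquantile scaling. Members, lists and pairs were chosen with earlier results of these data known, and every member was named (1 further name matched by the gene-name pattern is not reported here), with every Itgam probe, up to 6 called partners per direction, Ptprc, Emr1 and Acta2. The fit was tested on simulated data. Alternatives included other scalings, filters and probe rules, slide or scan day as a block, and each array left out. Same-numbered sham and PPE arrays were not paired: their deviations correlated between -0.30 and 0.52. The limma p-values weigh the difference between groups against the spread between aortas, and the number of arrays limits precision.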

Additional observations from a re-analysis of the deposited data

Results flagged for a closer look

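In each group of 5 arrays, a value was set apart where its gap to the nearest other array exceeded 0.71 of the group's range, which chance gives in about 1 in 20 groups; of 62 groups of tested members, 5 passed. Lamc1 in PPE 5 read -0.04, against 0.95 or more in the other PPE arrays. Lamb2 in PPE 2 read 1.33, against 0.45 for the next highest, and Itgb3 in PPE 2 read 1.98, against 1.68. Itgbl1 in sham 3 read 5.52, against 6.38 for the next lowest, and Itgav in sham 4 read -0.48, against -0.23.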

How the results depend on the processing

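Calls of all 31 tested members were the same under SAM, under the replicate block (paired by number; 3024 names higher and 2281 lower, against 3122 and 2244) and without sham 3, and the 26 members still measured kept theirs under the stricter filter of 10 arrays above background, which removed Lama1 and Itgal and left 0 laminins and 4 leukocyte chains called higher. Median centring left 1 leukocyte chain called higher, 0 matrix-binding chains higher and 0 lower, 0 laminins higher and 0 lower, 0 partners higher and 0 lower, and 408 names higher and 8 lower; the median standard error was 0.44 there against 0.15. Uncalled members changed sign under it, Itga5 (0.44), Itga9 (0.06), Itgb5 (0.41), Itgb1 (0.58), Lama4 (0.30), Lamb3 (0.03) and Lamc1 (0.67), as did the called Itgb3 (0.00). The aortic channel alone, added after the data were seen, gave 1 leukocyte chain higher, 0 matrix-binding chains higher and 0 lower, 0 laminins higher and 0 lower, 0 partners higher and 0 lower, and 520 names higher and 25 lower, with sign changes for the uncalled Itga5 (0.43), Itgb5 (0.49), Itgb1 (0.49), Lama4 (0.17), Lamb3 (0.18) and Lamc1 (0.74). The scanner's own ratio and the deposited value table held nearly the same values (2.41 and 2.35 for Lama1). Both left 0 laminins called higher, gave 0.34 for Itga5 against Itga8, and turned Itgav (-0.08) and Lama3 (-0.01). With no filter 3 matrix-binding chains were called lower; the mean of probes left 1 of them called higher; slide as a fixed block left 1 higher and 3 lower (Itga6, Itga10 and Itgb3 lost their calls). Slide as a random block added Itga9 to the chains called lower, making 6, and scan day as a fixed block added Lama2, making 4 laminins lower. Leaving out any single array gave 3 to 5 matrix-binding chains called lower, and turned only uncalled values near 0: Itgav (-0.04 to 0.13), Itgb1 (-0.16 to 0.00), Lamc1 (-0.18 to 0.13) and the Itgam probe at base 270 (0.00 to 0.10). Without both sham 5 and PPE 5, the dimmest array of each group in red, also chosen after the data were seen, 3 matrix-binding chains were called lower, and Lamc1 gave 0.03. For each of these changes the cause was not tested. Members dim in the aortic channel (Itgad, Itgae, Itgb2l, Itga2, Itgb6 and Itgb8) cannot be tested at this signal.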
